A study of Mus musculus with 15 samples.

Results

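Crebzf, Adipor2, Cnot6, Fam168b and Trim28 were followed across 5 groups of LSK cells, the lineage-negative bone marrow fraction with Sca-1 and c-Kit on its surface, in which blood stem cells and early progenitors are found. The 5 genes, of 45232 gene IDs in the count table and 17834 genes that could be tested, were chosen among those higher in every library from mice given both AG221 and ruxolitinib than in every library from mice given vehicle. Of all tested genes 19.5% met this condition, and among them the 5 had the smallest adjusted p-values of the rise. All 5 passed the filter on low counts. Their levels in the vehicle and combined therapy libraries chose them, so the rise itself is given here as a description with no test. For these 5 genes, every comparison that uses a vehicle or a combined therapy library is likewise a description.

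The cells were CD45.2+ LSK cells of C57BL/6 background, with 3 libraries per group. In 4 groups (vehicle, AG221, Rux and combo) they came from CD45.1 hosts that had been lethally irradiated and given a mixture of mutant and congenic CD45.1 marrow, and they carried both IDH2 R140Q and JAK2 V617F as conditional alleles switched on by polyI:polyC through Mx1-Cre. The Mx1 promoter responds to interferon in blood cells and in other tissues, so the alleles are not restricted to stem cells. AG221, an inhibitor of mutant IDH2, was given at 40 mg/kg and ruxolitinib (Rux), an inhibitor of the JAK1 and JAK2 kinases, at 60 mg/kg, alone or together (combo), by gavage for 21 to 28 days with the last dose about 1.5 hours before death, as the labels state. The study's methods also name a higher AG221 dose and do not say which mice received it. Vehicle-treated mice received neither drug. The fifth group was WT LSK cells, which carried neither mutation, and the labels do not say whether the WT mice had been transplanted. Neither do the sources say whether a library was 1 mouse or a pool, or give the age of each group, so the errors here measure the spread between these libraries, which may be in part technical.

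The genes belong to unrelated protein families. Crebzf (also called Zhangfei) is a basic leucine zipper protein of the ATF/CREB family that binds the cofactor HCF-1, encoded by Hcfc1, and modulates other zipper proteins. Adipor2 is a membrane receptor for the fat-derived hormone adiponectin, which signals to AMP-activated kinase and ceramide metabolism. Cnot6 is a catalytic subunit of the CCR4-NOT complex, which shortens the poly(A) tails of mRNAs and so starts their decay. Trim28 (KAP1) is a corepressor that KRAB zinc finger proteins bring to chromatin, where it recruits the histone methyltransferase Setdb1, silences retroelements and keeps imprinted genes marked. Fam168b encodes a neuronal membrane protein, known for an effect on neurite outgrowth, whose role in blood cells is not established. Mutant IDH2 makes 2-hydroxyglutarate, which inhibits demethylases of DNA and histones, and JAK2 V617F signals without its cytokine receptors being engaged.

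Between 18836625 and 32174287 reads were counted on genes per library. Both defining LSK markers were present in every library, with Kit (c-Kit) between 739.8 and 1552 and Ly6a (Sca-1) between 13.1 and 165.8 CPM (each count relative to its TMM-scaled library total). The WT libraries differed from all others in sex, since Xist was at 455.4 to 511.3 CPM in WT and at most 19.5 CPM elsewhere, while Ddx3y had at most 3 counts in a WT library and was at 124.4 CPM or more elsewhere. The 5 genes are all on autosomes. Replicate names start with A in the vehicle, AG221 and Rux groups and with B in the combo and WT groups, a letter the sources do not explain. Group and letter cannot be told apart in any comparison between the 2 sets of names, and genotype and sex cannot be told apart in any comparison with WT.

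In GRCm38 coordinates, Crebzf (ENSMUSG00000051451) lies at chr7:90442729-90447994 on the plus strand. Adipor2 (ENSMUSG00000030168) lies at chr6:119353150-119417704 and Cnot6 (ENSMUSG00000020362) at chr11:49671503-49712723, both on the minus strand. Fam168b (ENSMUSG00000037503) lies at chr1:34813219-34843065 on the minus strand and Trim28 (ENSMUSG00000005566) at chr7:12999114-13031035 on the plus strand. All are protein-coding genes, and 2 share chromosome 7 without being neighbours. The strand setting of the counting is not given in the sources used here, and 2.43% of the exonic bases of Fam168b are overlapped by exons of Arhgef4 and Gm37127 on the opposite strand, so a small share of its reads is uncertain. The other 4 genes have no exon overlap with another gene.

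The 250 bases before the RefSeq start (GRCm38.p6) are shown for the 4 genes with a window in the RefSeq promoter table (not Fam168b), so that what these promoters share can be read. Each sequence is given 5′ to 3′ on the strand of its gene, and capitals mark matches to the motifs searched. The Crebzf window (chr7:90442531-90442780, plus strand), the Adipor2 window (chr6:119388735-119388984, minus strand), the Cnot6 window (chr11:49712723-49712972, minus strand) and the Trim28 window (chr7:13023902-13024151, plus strand) read as follows.
Crebzf: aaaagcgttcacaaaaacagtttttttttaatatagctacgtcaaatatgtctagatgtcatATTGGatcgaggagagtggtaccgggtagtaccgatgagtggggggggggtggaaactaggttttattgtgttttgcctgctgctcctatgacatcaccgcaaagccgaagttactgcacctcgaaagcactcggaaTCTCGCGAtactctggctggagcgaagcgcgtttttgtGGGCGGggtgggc
Adipor2: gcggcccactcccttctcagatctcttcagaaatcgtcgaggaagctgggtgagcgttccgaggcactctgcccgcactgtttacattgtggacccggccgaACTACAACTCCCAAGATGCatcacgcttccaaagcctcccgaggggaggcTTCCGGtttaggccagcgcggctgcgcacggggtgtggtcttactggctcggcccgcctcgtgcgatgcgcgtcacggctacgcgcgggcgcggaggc
Cnot6: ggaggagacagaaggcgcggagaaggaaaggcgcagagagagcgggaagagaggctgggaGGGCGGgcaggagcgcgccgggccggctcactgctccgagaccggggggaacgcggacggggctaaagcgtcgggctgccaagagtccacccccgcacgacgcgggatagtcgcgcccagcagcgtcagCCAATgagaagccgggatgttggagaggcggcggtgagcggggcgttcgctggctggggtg
Trim28: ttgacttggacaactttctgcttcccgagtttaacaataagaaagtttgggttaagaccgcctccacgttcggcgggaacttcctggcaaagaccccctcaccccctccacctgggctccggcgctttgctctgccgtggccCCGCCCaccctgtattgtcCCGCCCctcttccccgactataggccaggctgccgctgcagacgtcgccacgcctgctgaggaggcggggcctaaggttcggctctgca

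The Adipor2 and Trim28 windows lie wholly inside the gene coordinates given above, before RefSeq starts that are downstream of the outermost annotated start. Whether LSK cells use these starts was not tested. No motif was found in all 4 windows. The 10 motifs were chosen with these sequences in view, were searched on both strands, and are descriptions and not binding sites. A GC box (GGGCGG), which SP family factors recognise, was in 3 of the 4 windows (Crebzf, Cnot6 and, at 2 places, Trim28) and in 32.7% of all 32851 windows of the same length. A CCAAT box (CCAAT), the NF-Y motif, was in the Crebzf and Cnot6 windows and in 33.8% of all windows. Adipor2 alone held the ETS core (CCGGAA, 12% of all windows) and the SBS element (searched as ACTACA, 2 free bases, TCCCA, 2 free bases and ATGC; 0.21%), the long motif of ZNF143, with its first base 148 bases before the start. Crebzf alone held the CGCG element (TCTCGCGA, 0.858% of all windows), from 51 to 44 bases before the start. The cAMP response element (TGACGTCA, 1.55%), the E-box (CACGTG, 6.02%), the STAT palindrome (TTCNNNGAA, 7.02%), the AP-1 element (TGANTCA, 6.75%) and the TATA box (TATAAA, 12.4%) were in none of these 4 windows. GC content was 48.8% in the Crebzf window, 64.8% in that of Adipor2, 70.8% in that of Cnot6 and 62% in that of Trim28.

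Crebzf showed the largest rise of the 5 genes. In vehicle-treated LSK cells it was at 4.85, 6.83 and 8.56 CPM in replicates A1, A3 and A4. With combined therapy it was at 35.5, 30.3 and 26.4 CPM in replicates B24, B25 and B26, so that the lowest combo library was more than 3 times the highest vehicle library. The mean went from 6.75 ± 1.86 to 30.7 ± 4.57 CPM (SD, n = 3 each). On the log2 scale combo lay 2.19 above vehicle (SE 0.254). WT LSK cells held 19.5, 23.5 and 19.1 CPM, above every vehicle library and below every combo library. With AG221 alone the gene was at 8.34, 9.85 and 5.97 CPM, which overlaps the vehicle libraries, and with ruxolitinib alone at 5.56, 3.85 and 4.51 CPM, the lowest group. The libraries of both single drugs thus overlapped those of vehicle for this bZIP gene. The log2 fold changes against vehicle were 0.25 (SE 0.246) with AG221 and -0.54 (SE 0.249) with ruxolitinib. Its counts were the smallest of the 5 genes, from 90 in Rux replicate A16 to 878 in combo replicate B25.

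Trim28 had the highest level per kilobase of exon in the combo group, 38.8 ± 6.15 CPM per kb (SD, n = 3) against 7.36 ± 1.10 for Crebzf. It was at 40.0, 39.5 and 55.5 CPM with vehicle. With combined therapy it was at 168.6, 182.1 and 132.7 CPM, every library above the highest of any other group. This corepressor was the gene of the 5 that stood highest with AG221 alone relative to vehicle, at 84.7, 120.0 and 72.8 CPM in replicates A8, A9 and A10. The 3 WT libraries, at 72.8, 90.4 and 80.6 CPM, overlapped this AG221 range. With ruxolitinib alone the gene was at 48.9, 30.7 and 40.8 CPM, overlapping vehicle. Against vehicle the log2 fold change was 1.84 (SE 0.229) with both drugs, 1.04 (SE 0.224) with AG221 and -0.17 (SE 0.223) with ruxolitinib. Trim28 transcripts are GC-rich (59.6%, percentile 95.96 of the tested genes), and with GC content offsets per library the combo and AG221 groups overlapped and their difference went from 0.80 to -0.10 on the log2 scale.

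Cnot6 was at 51.3, 55.5 and 60.6 CPM with vehicle. Combined therapy gave 177.1, 173.7 and 120.1 CPM, with replicate B26 the lowest of the 3 combo libraries, as it also was for the other 4 genes. With AG221 alone this deadenylase gene was at 85.7, 86.0 and 75.5 CPM, above all vehicle libraries and overlapping WT (79.7, 107.5 and 79.0 CPM). With ruxolitinib alone it was at 56.3, 41.8 and 53.5 CPM, overlapping vehicle. The log2 fold change of combo over vehicle was 1.49 (SE 0.183), that of AG221 over vehicle 0.56 (SE 0.180). At 39.8% GC, Cnot6 stood at the other end of the tested genes from Trim28 (percentile 7.31), and GC offsets left its combo libraries above every AG221 library.

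Fam168b was at 31.4, 26.8 and 31.6 CPM with vehicle. Combined therapy gave 115.6, 91.7 and 81.2 CPM, and WT 62.3, 79.0 and 63.4 CPM, so WT lay between the groups without touching either. With AG221 alone it was at 43.0, 63.2 and 37.6 CPM, where replicate A9 reached the WT range and A8 and A10 did not. With ruxolitinib alone it was at 31.1, 24.95 and 30.6 CPM, overlapping vehicle. The log2 fold change of combo over vehicle was 1.68 (SE 0.207). The change of AG221 over vehicle was 0.68 (SE 0.203), and 0.42 without AG221 replicate A9.

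Adipor2 had the smallest rise of the 5 genes. It was at 14.8, 18.3 and 16.8 CPM with vehicle, and at 44.9, 41.3 and 40.2 CPM with both drugs. The adiponectin receptor was at 25.6, 31.2 and 25.1 CPM with AG221 alone, above every vehicle library, and at 17.5, 14.5 and 19.03 CPM with ruxolitinib alone, which overlaps vehicle. WT LSK cells held 30.8, 33.4 and 30.4 CPM, overlapping AG221. The log2 fold change of combo over vehicle was 1.34 (SE 0.156) and that of AG221 over vehicle 0.72 (SE 0.155).

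**Figure D1:**
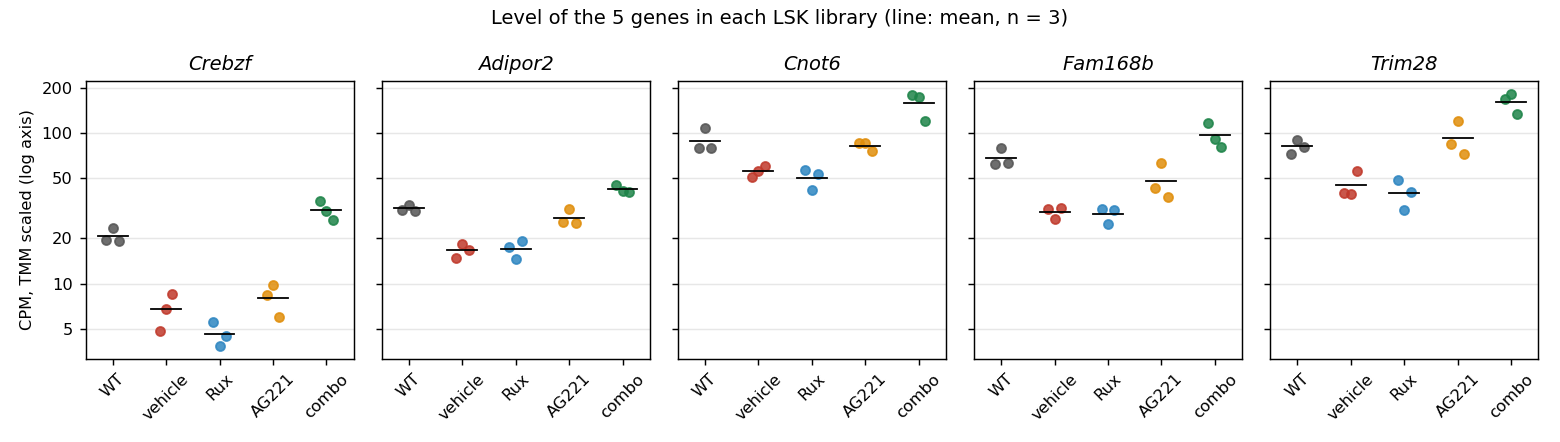
Level of each of the 5 genes in the 15 libraries, in TMM-scaled CPM on a log axis, with groups along the x axis, 1 point per library and a line at the group mean (n = 3). For each gene the 3 combo libraries are above all other libraries, and vehicle and Rux occupy the same low range; Crebzf, at 5.97 to 9.85 CPM with AG221, is the gene whose AG221 libraries stay near vehicle.

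All 5 genes thus shared an order of groups with small differences. Rux and vehicle overlapped at the bottom, at mean levels 1.02 to 1.45 times apart, and combo was at the top. AG221 and WT overlapped in the middle for Adipor2, Cnot6, Fam168b and Trim28, while for Crebzf AG221 overlapped vehicle and WT was 2.57 times the AG221 mean. Under upper quartile scaling every WT library was above every AG221 library for Adipor2 and Fam168b as well, so that 3 of the 5 genes no longer overlapped there. Every combo library was above every vehicle library for 5 of 5 genes, which the rule required and which 19.5% of all tested genes shared. The combo libraries were also above every WT library for 5 of 5 genes (22.3% of all tested genes) and above every AG221 library for 5 of 5 (24.3%). Above WT this held for only Adipor2 and Trim28 under upper quartile scaling. Relative to WT, the log2 fold changes of combo were 0.57 (SE 0.242) for Crebzf, 0.42 (SE 0.153) for Adipor2, 0.82 (SE 0.180) for Cnot6, 0.49 (SE 0.202) for Fam168b and 0.99 (SE 0.223) for Trim28. Vehicle was below WT for 5 of 5 genes without overlap (31.3% of all tested genes), by -1.62 (SE 0.249) for Crebzf, -0.93 (SE 0.155) for Adipor2, -0.67 (SE 0.180) for Cnot6, -1.19 (SE 0.204) for Fam168b and -0.85 (SE 0.223) for Trim28 on the log2 scale.

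The rise with both drugs was larger than the sum of the changes with each drug alone for the 5 genes. This departure from the sum, on the log2 scale, was 2.47 (SE 0.352) for Crebzf, 1.07 (SE 0.254) for Cnot6, 1.06 (SE 0.286) for Fam168b, 0.97 (SE 0.315) for Trim28 and 0.59 (SE 0.218) for Adipor2. It uses the libraries that chose the genes and stands untested. Combo is the only group in it whose replicate names start with B, so letter and drugs cannot be told apart in it. Of all tested genes, 8.42% were called by the same term. The departure of Trim28 was 0.10 with GC content offsets and that of Adipor2 was 0.29 under upper quartile scaling.

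Not the 5 largest fold changes but the 5 smallest adjusted p-values of the rise single these genes out. Of 1476 genes called higher with combined therapy, 8.28% of those tested, 335 had a larger log2 fold change than Crebzf and 944 a larger one than Adipor2. The next genes in that order, outside the 5, were Mark3, Fam91a1 and D17Wsu92e. Mark3, a polarity kinase, went from 6.32 to 9.59 CPM with vehicle to 20.7 to 28.8 CPM with both drugs. Fam91a1, which acts in vesicle tethering at the Golgi, went from 16.7 to 23.6 CPM to 50 to 73.9 CPM. D17Wsu92e went from 13.1 to 17.2 CPM to 35.5 to 52.5 CPM. Their log2 fold changes of 1.62, 1.73 and 1.52 lie within the range of the 5 genes, so the boundary at the fifth gene divides similar patterns.

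Other transcripts moved between the groups beside these genes. In bulk libraries fewer cells of a type and less RNA per cell cannot be told apart. The summed level of 5 mast cell and basophil markers was 495.9 to 989.7 CPM with vehicle and 246.1 to 380.5 CPM with both drugs, and that of 9 neutrophil markers 7823 to 12840 CPM and 4305 to 7727 CPM. Of the 5 mast cell and basophil markers 2 were called lower, and of the 9 neutrophil markers 1, with none called higher. The neutrophil sum was mostly Mpo (means of 6669 CPM with vehicle and 3667 CPM with both drugs). The summed level of 25 immediate early genes was 8117 to 16890 CPM with vehicle, 5249 to 6551 CPM with AG221, 5118 to 10460 CPM with ruxolitinib, 887.6 to 1553 CPM with both drugs and 947.2 to 1277 CPM in WT. The 13 stem cell markers overlapped between vehicle (2272 to 3762 CPM) and combo (2830 to 3629 CPM), as did the B-lineage, plasma cell, T and NK cell, erythroid, megakaryocyte, and monocyte and dendritic cell lists. Overlap of sums can hide single genes. The erythroid sum was mostly Car1 (means of 687.6 CPM with vehicle and 829.9 CPM with both drugs). Mean Hbb-bs went from 62.5 to 13.1 CPM and Klf1 from 58.0 to 112.4 CPM, though 0 of the 9 erythroid markers were called. Of the 6 megakaryocyte markers, 1 was called higher and 1 lower. Of the marker genes, only Gzma was under 1 CPM in every library, and none was at 0 throughout. Against WT, vehicle, Rux and AG221 libraries were each lower for the stem cell, B-lineage and plasma cell lists (plasma cells 466.8 to 1037 CPM in WT and 11.0 to 24.8 CPM with vehicle, 12.9 to 79.6 CPM with Rux, 9.15 to 26.4 CPM with AG221) and higher for the other 7. The T and NK cell sum was mostly Nkg7, with means of 174.3 CPM in WT, 425.8 CPM with vehicle and 678.3 CPM with AG221. Every other gene of that list had a lower mean with vehicle than in WT (Lck 16.1 and 37.8 CPM). The higher sums of this list, here and below, are therefore those of Nkg7 and not of the list as a whole. The stem cell list was at 4348 to 4804 CPM in WT, and the megakaryocyte list at 249.2 to 337.8 CPM in WT and 860.4 to 920.7 CPM with vehicle. The combo libraries were lower than WT in the sums of the same 3 lists and higher in those of 5, while the monocyte and dendritic cell list and the immediate early genes overlapped. The higher erythroid sum was mostly Car1 (means of 829.9 CPM with both drugs and 252.5 CPM in WT). Not every gene went with the sum of its list. Means with both drugs and in WT were 5.68 and 6.18 CPM for Hba-a1, and 36.6 and 44.2 CPM for S100a8. Slamf1, of the stem cell list, was at 29.6 and 13.3 CPM (37.4 CPM with vehicle). Between AG221 and vehicle, the neutrophil list was higher with AG221 (17360 to 20470 CPM), as was the T and NK cell list (620.3 to 782.7 and 426.2 to 485.9 CPM), and the megakaryocyte list and the immediate early genes were lower, all without overlap. Between AG221 and Rux, the stem cell list was lower (2408 to 2682 and 2834 to 3388 CPM), as was the megakaryocyte list (351.9 to 582.8 and 665.1 to 778.7 CPM), without overlap. The T and NK cell list (620.3 to 782.7 and 443.6 to 552.2 CPM) and the mast cell and basophil list (471.6 to 613.3 and 271.8 to 287.6 CPM) were higher with AG221, again without overlap. Whether these differences had a part in the values of the 5 genes was not tested.

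The comparisons that use neither vehicle nor combo libraries could be tested, and they showed all 5 genes lower with ruxolitinib alone than in WT. These tests are not wholly free of the choice, since the spread of each gene came from the same fit of all 15 libraries. Rux and vehicle also differed little (3 of 17834 genes called), as did combo and WT (3.25% called). Rux against WT is therefore not independent of the comparison that chose the genes. In both tested comparisons with WT, genotype, sex and name letter cannot be told apart. Genes picked for small adjusted p-values in that fit may have small spread. Their shares of calls may therefore run above those of all tested genes. Ruxolitinib-treated mutant LSK cells were below WT by 2.16 on the log2 scale for Crebzf (a log2 fold change of -2.16, SE 0.255, adjusted p = 0.000301, edgeR quasi-likelihood test, Benjamini-Hochberg adjusted). Fam168b followed with -1.24 (SE 0.205, adjusted p = 0.00211, same edgeR test) and Trim28 with -1.02 (SE 0.224, adjusted p = 0.00741, same edgeR test). The change was -0.89 (SE 0.155, adjusted p = 0.00267) for Adipor2 and -0.81 (SE 0.181, adjusted p = 0.00761) for Cnot6 in that edgeR test. All 3 Rux libraries were below all 3 WT libraries for 5 of 5 genes (32.8% of all tested genes). Among all tested genes 16.2% were called lower in this comparison and 32.3% in either direction. The 5 calls were kept in each of the 12 alternatives. The median of all tested genes was -0.14, and relative to it the changes were -2.02, -0.75, -0.67, -1.10 and -0.88 for Crebzf, Adipor2, Cnot6, Fam168b and Trim28.

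With AG221 alone, only Crebzf and Fam168b were called lower than in WT, where 28.5% of all tested genes were. Crebzf differed by -1.36 (SE 0.248, adjusted p = 0.00106, edgeR quasi-likelihood test, Benjamini-Hochberg adjusted), a call kept in all 12 alternatives. Fam168b differed by -0.51 (SE 0.202, adjusted p = 0.0492, same edgeR test), a call that was lost in 11 of 12 alternatives and kept without AG221 replicate A9. The values of the others were -0.21 (SE 0.153) for Adipor2, -0.11 (SE 0.179) for Cnot6 and 0.19 (SE 0.222) for Trim28, with adjusted p of 0.267, 0.637 and 0.497 in the same edgeR test. The median of all tested genes was -0.25 here and 0.0385 with GC content offsets, a shift that matters for such small values. Relative to that median of -0.25 the values were -1.11 for Crebzf, 0.043 for Adipor2, 0.15 for Cnot6, -0.26 for Fam168b and 0.44 for Trim28. With GC content offsets, Trim28 was higher with AG221 than in WT by 1.04 (adjusted p = 0.00067, edgeR).

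AG221 against ruxolitinib is the tested comparison in which both groups have the same mutations, the same sex and the same name letter. All 5 genes were higher with AG221 in every library, which 12.2% of all tested genes shared. Trim28 differed by 1.21 (SE 0.225, adjusted p = 0.0220, edgeR quasi-likelihood test, Benjamini-Hochberg adjusted), Cnot6 by 0.71 (SE 0.180, adjusted p = 0.0494, same edgeR test) and Adipor2 by 0.68 (SE 0.155, adjusted p = 0.0368, same edgeR test). These 3 of 5 genes were called higher, against 2.06% of all tested genes. The 2 shares are not like for like, because the spread used here came from the fit that chose the genes. Crebzf and Fam168b had values of 0.79 (SE 0.249, adjusted p = 0.0848) and 0.73 (SE 0.203, adjusted p = 0.0607) in that edgeR test and were not called. The direction held in all alternatives, but the number of calls ran from 0 in a fit of these 2 groups alone to 5 with DESeq2, upper quartile scaling or GC content offsets. Without AG221 replicate A8, Rux replicate A14 or Rux replicate A17 it was 0, and without AG221 replicate A10 or Rux replicate A16 it was 1.

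**Figure D2:**
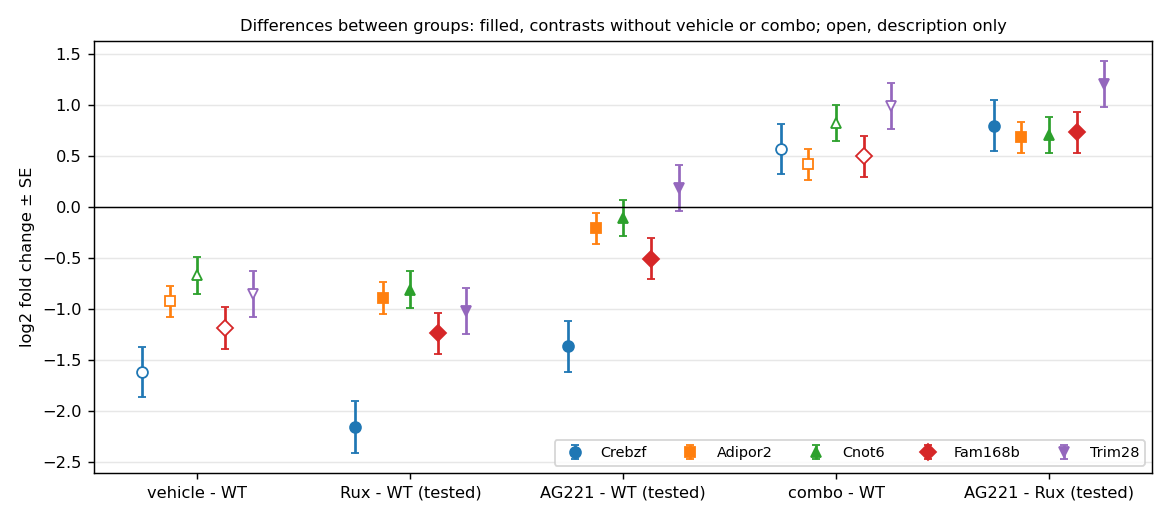
Differences between groups for the 5 genes as log2 fold change (y axis) with the standard error as bar, by comparison (x axis), each gene with its own colour and symbol. Filled symbols are the tested comparisons, without vehicle or combo libraries, and open symbols are descriptions; all 5 genes are below 0 for vehicle and Rux against WT and above 0 for combo against WT, while with AG221 against WT they run from -1.36 for Crebzf to 0.19 for Trim28.

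The closest relatives of these genes differed among themselves. Adipor1, the other adiponectin receptor, was at 68.4, 121.3 and 122.1 CPM with vehicle and 181.1, 195.0 and 170.1 CPM with both drugs, a log2 fold change of 0.81 (SE 0.372) that was not called (adjusted p = 0.184, edgeR). It was called in the edgeR fit of only the 2 groups compared (adjusted p = 0.0483) and in none of the other alternatives. Its AG221 libraries were at 41.1, 98.8 and 35.7 CPM, the group with the lowest mean, where Adipor2 stood above vehicle. Cnot6l, the paralog of Cnot6, was at 81.6 to 113.1 CPM with vehicle and 90.9 to 115.4 CPM with both drugs, a log2 fold change of 0.063 (SE 0.140). Fam168a, the paralog of Fam168b, was at 37.7 to 54.7 CPM with vehicle and 33.0 to 37.3 CPM with both drugs, a log2 fold change of -0.36 (SE 0.150). Neither was called (adjusted p = 0.827 and 0.136, edgeR), and all 5 groups of Cnot6l and Fam168a had means within 92.6 to 110.0 and 35.8 to 46.6 CPM. Trim24, a relative of Trim28, did rise, from 7.70 to 8.87 CPM with vehicle to 17.4 to 22.5 CPM with both drugs (log2 fold change 1.28, SE 0.201, adjusted p = 0.00242, edgeR). Trim33, another relative, had a log2 fold change of 0.34 (SE 0.136, adjusted p = 0.123, edgeR). Trim66 was near the detection floor, at 0.24 to 1.10 CPM with both drugs. The differences between a gene and its relative were not tested.

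**Figure D3:**
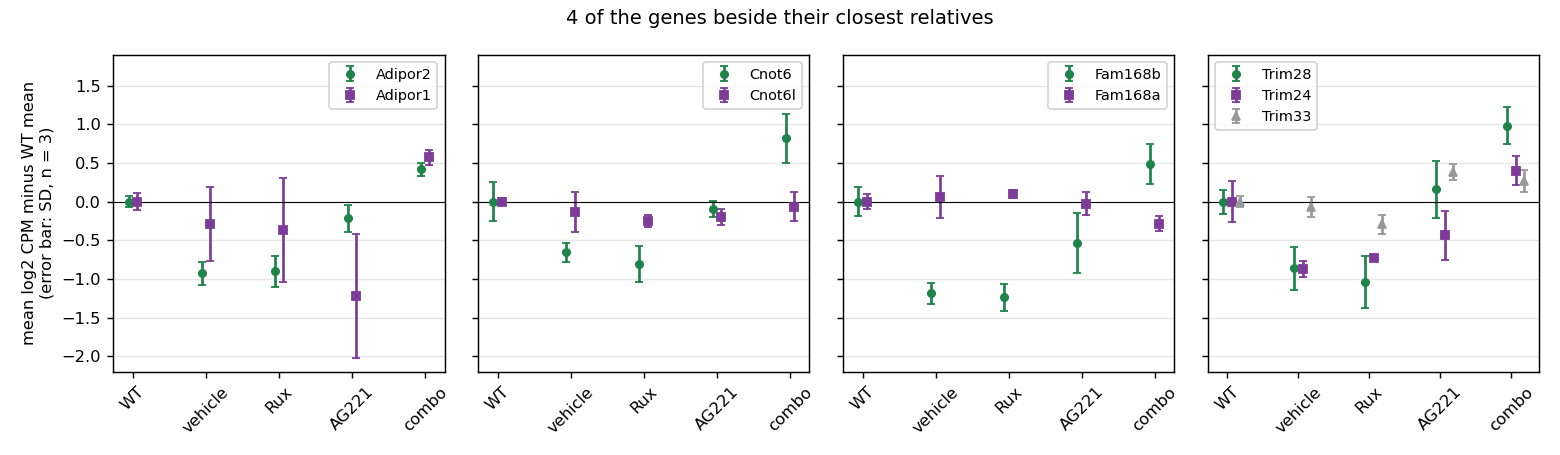
Adipor2, Cnot6, Fam168b and Trim28 (green circles) beside their relatives Adipor1, Cnot6l, Fam168a, Trim24 and Trim33 (purple squares, grey triangles), as mean log2 CPM minus the WT mean (y axis; bars are SD, n = 3) in the 5 groups (x axis). Cnot6l and Fam168a stay close to 0 in all groups, Adipor1 is lowest with AG221, and Trim24 is low with vehicle and Rux as Trim28 is.

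Among 157 tested partners and relatives of the 5 genes, 16 rose and 15 fell with combined therapy (edgeR quasi-likelihood test, Benjamini-Hochberg adjusted), 19.75% against 12.5% of all tested genes. The lists were written from general knowledge with earlier results of these data known. The count rested on single libraries, and was 15 without combo replicate B24 or B25 and 14 without vehicle replicate A1. The median log2 fold change of the 157 genes was -0.0052 and that of all tested genes 0.0368.

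Of 25 ATF/CREB factors and HCF cofactors, the family of Crebzf, 1 rose (4%) and 7 fell (28%). Of all tested genes 8.28% were called higher and 4.21% lower in this comparison. The riser was Cebpg, a partner of many zipper proteins, at 24.3 ± 8.12 CPM with vehicle and 77.3 ± 22.8 CPM with both drugs (SD, n = 3 each; log2 fold change 1.67, SE 0.351). Atf3, an early response factor, fell from 46.6 to 57.6 CPM to 0.21 to 0.51 CPM. Atf4, the stress response factor, fell from 261.8 to 276.3 CPM to 116.4 to 138.7 CPM (log2 fold change -1.08, SE 0.164), and its target Ddit3 fell by 0.89 on the log2 scale. Hcfc1, the HCF cofactor that Crebzf binds, fell from 377.0 to 476.1 CPM to 240.0 to 309.3 CPM (log2 fold change -0.67, SE 0.159), opposite in direction to Crebzf, though its call was lost without combo replicate B24 or B25 or vehicle replicate A1. Atf4 and Hcfc1 were called higher with vehicle than in WT (log2 fold changes of 1.18 and 0.72, edgeR), and Cebpg lower (-1.13).

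Of 33 tested genes of the adiponectin receptor pathway, 2 rose and 1 fell, which at 9.09% is below the 12.5% of all genes. Stk11 (LKB1), which activates AMP-activated kinase, had a log2 fold change of 1.30 (SE 0.338), and its scaffold Cab39 (MO25) 1.58 (SE 0.246). Strada and Stradb, which encode the pseudokinases of the LKB1 complex, were at -0.11 and 0.26 on that scale and not called. Cab39 was at 22.0 to 34.0 CPM with vehicle and 55.4 to 100.3 CPM with both drugs. Ppargc1b, a coactivator of mitochondrial genes, fell by 0.80 on the log2 scale. The calls of Stk11 and Ppargc1b were each lost without 4 of the 6 libraries in turn, and that of Cab39 was kept without each of the 6.

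Of 11 CCR4-NOT subunits other than Cnot6, 1 rose and 1 fell (9.09% each, against 8.28% and 4.21% of all tested genes). Cnot11, a subunit of the complex's N-terminal module, rose by 2.35 on the log2 scale (SE 0.551), from 5.30 to 14.3 CPM to 28.1 to 67.1 CPM, and its call was lost without combo replicate B24 or B25 or vehicle replicate A1. Cnot1, the scaffold that holds all subunits, fell from 577.9 to 655.5 CPM to 310.3 to 349.8 CPM (log2 fold change -0.88, SE 0.193), while Cnot6 was higher with both drugs. Of 27 other deadenylases and decay adaptors, 2 rose (7.41%) and 4 fell (14.8%). Zfp36l2, which guides CCR4-NOT to AU-rich mRNAs, rose from 56.2 to 83.0 CPM to 167.3 to 421.3 CPM (log2 fold change 2.04, SE 0.412). Its paralog Zfp36 fell by 3.82 on the log2 scale (SE 0.340), from 1185 to 2808 CPM to 96.0 to 206.5 CPM. Btg2, an early response gene whose protein binds the deadenylase, fell by 3.58 (SE 0.313). The nocturnin gene Noct rose by 0.92 (SE 0.263) and Ddx6, a decapping helicase, fell by 0.55 (SE 0.127), both with calls that were lost without single libraries.

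Of 38 genes of the TRIM28 silencing machinery, 7 rose and 2 fell, the largest share of risers among the 7 lists (18.4%, against 8.28% of all tested genes). Fam208a (Tasor), a subunit of the HUSH complex, rose from 22.6 to 28.6 CPM to 61.2 to 83.2 CPM (log2 fold change 1.45, SE 0.195). Suv39h2, a histone methyltransferase, rose by 1.97 (SE 0.382) and Trim24 by 1.28, and all 3 calls held with each of 6 libraries left out. Setdb1, the methyltransferase that Trim28 recruits, fell from 171.8 to 209.4 CPM to 120.2 to 134.1 CPM (log2 fold change -0.59, SE 0.171), but its call held without only 1 of the 6 libraries. Pphln1, also of the HUSH complex, fell by 0.58 (SE 0.145), a call that held without only 2 of the 6 libraries in turn and was lost with no filter on low counts. Trim28 itself was higher in the combo group. The median over the 38 genes was 0.071.

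Of 22 tested imprinted genes, 3 rose with combined therapy (13.6%) and 19 did not pass the test. By the same edgeR test 8.28% of all genes were called higher and 12.5% in either direction. With vehicle, 11 of the 22 were lower than in WT and 11 did not pass the test, with a median of -0.999, against 17.9% of all tested genes called lower. Igf2r, the receptor that clears Igf2, was at 23.0 to 47.9 CPM in WT, 1.30 to 3.10 CPM with vehicle and 5.27 to 8.92 CPM with both drugs. Mkrn3 was at 3.02 to 5.73 CPM in WT, 0.51 to 1.28 CPM with vehicle and 1.896 to 4.49 CPM with both drugs. Gnas was at 2.14 to 2.87 CPM in WT, 1.50 to 2.84 CPM with vehicle and 3.52 to 6.43 CPM with both drugs, so that its vehicle and WT libraries overlapped, and it was not among the 11 called lower. The calls of all 3 rested on single libraries. The cell type marker lists differed between vehicle and WT as given above, and their part in the lower imprinted genes was not tested.

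**Figure D4:**
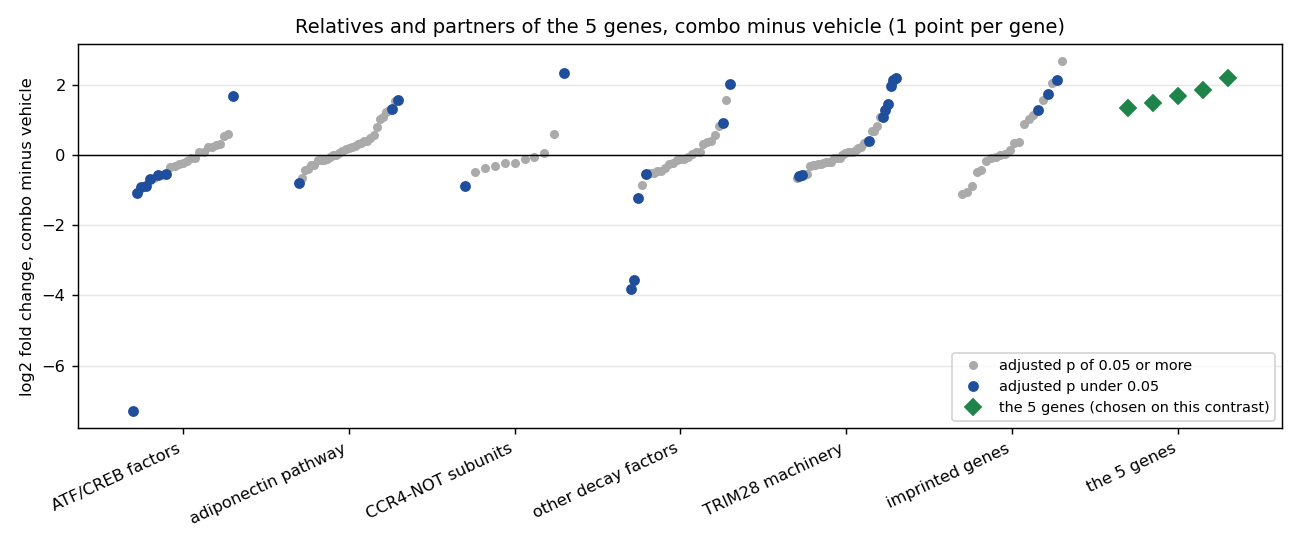
Log2 fold change of combo over vehicle (y axis) for each tested gene of 6 lists of relatives and partners and for the 5 genes themselves (x axis), 1 point per gene, blue where the adjusted p was under 0.05 in the edgeR quasi-likelihood test and grey otherwise. Most relatives lie near 0, 16 blue points are above and 15 below, and the 5 genes (green, chosen on this comparison) are between 1.34 and 2.19.

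Genes most like each of the 5 across all 15 libraries, by Pearson's r of log2 CPM, were found among all tested genes. The 15 points share groups, so the values only rank likeness. For Crebzf these were Golga4 (0.969), Gramd4 (0.968) and Rdh10 (0.967). For Adipor2 they were Rmnd5a (0.966), Fam168b (0.966) and Map3k5 (0.959). For Cnot6 they were Cab39 (0.983), Coq2 (0.982) and Top2b (0.980). For Fam168b they were Ulk2 (0.974), Fam160b1 (0.972) and Sh2b3 (0.969). For Trim28 they were Atp2a2 (0.981), Uhmk1 (0.973) and Ddi2 (0.972). Between the 5 genes r lay from 0.864 (Crebzf and Trim28) to 0.966 (Adipor2 and Fam168b, and Cnot6 and Trim28). The 15 libraries include the vehicle and combo libraries that chose the 5 genes. High r between them therefore follows in part from the choice and is no sign of shared regulation. By Spearman's rank correlation, with ties sharing a rank, 2 of the 15 genes named were among the 3 most alike, Cab39 for Cnot6 and Uhmk1 for Trim28.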

How the data were processed

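RNA was measured by sequencing of SMARTer-amplified total RNA from sorted CD45.2+ LSK cells, in 15 libraries of 5 groups, grouped by the sample labels. The authors aligned paired-end reads to mm10 with STAR 2.5.1a and deposited raw counts per Ensembl gene (per the labels and the study's methods); the Ensembl release and strand setting are not given in the sources used here. A second deposited table, counts divided by DESeq2 1.6.3 size factors, was not used. Symbols and coordinates came from GENCODE mouse release 21, which matched 44585 of 45232 IDs. Genes that passed filterByExpr by group (17834) were fitted in edgeR 4.0.16 (R 4.3.3) with TMM normalization, 5 groups, no covariates and quasi-likelihood tests, with Benjamini-Hochberg adjustment over all tested genes and a threshold of 0.05. The common biological coefficient of variation was 0.313. Standard errors are the log2 fold change divided by the square root of F. Log2 CPM used a prior count of 2. Totals of 18836625 to 32174287 counts put 3 counts, the limit that a count of 0 allows, at 0.0932 to 0.159 CPM, for counting error only.

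The 5 genes, the gene lists and the comparisons were chosen with earlier results of these data known. Genes named are the 5, the next 3 by adjusted p of the rise, the 3 most alike genes of each by Pearson's r, fixed close relatives (Adipor1, Cnot6l, Fam168a, Trim24, Trim33, Trim66, Hcfc1, Atf4 and Setdb1), and up to 3 genes per list and direction with the smallest adjusted p in combo against vehicle. On simulated counts for AG221 against WT (17225 genes), 20.6% of genes changed 2-fold and 58.6% of those changed 4-fold were called. Only 97 and 99 genes were so changed, where 50.7% of tested genes were called in the data. Adjustment is stricter when few genes change, so these shares do not measure the sensitivity of the tests reported here. The alternatives were DESeq2 1.42.0, RLE and upper quartile scaling, no filter beyond 1 count, a fit of only the groups compared, GC content offsets (lowess span 0.3), each library left out, Spearman's correlation and a prior count of 0.5.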

Additional observations from a re-analysis of the deposited data

Results flagged for a closer look

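The change with both drugs differed from the sum of the changes with AG221 and with ruxolitinib for 18 of the 157 tested relatives and partners (11.5%), by the interaction term of the edgeR quasi-likelihood fit, Benjamini-Hochberg adjusted, against 8.42% of all tested genes. Combo is the only group of this term whose replicate names start with B, so a departure cannot be told apart from a difference between the letters. Of the relatives and partners named above 11 were called, but most of them were named for their difference between combo and vehicle, which is part of this term, so that number is no share to read. In the family of Crebzf, this departure was 2.09 (SE 0.491, adjusted p = 0.0355, edgeR) for Cebpg and -4.97 (SE 0.495, adjusted p = 0.00136, edgeR) for Atf3. In the adiponectin receptor pathway it was 1.29 (SE 0.342) for Cab39, the gene most like Cnot6 across libraries. Among decay factors it was 2.84 (SE 0.763) for Cnot11, 2.30 (SE 0.569) for Zfp36l2, -2.26 (SE 0.405) for Btg2 and -2.94 (SE 0.438) for Zfp36. In the TRIM28 machinery it was 1.50 (SE 0.272) for Fam208a and 2.07 (SE 0.534) for Suv39h2, and among imprinted genes 2.27 (SE 0.498) for Gnas and 3.84 (SE 0.935) for Mkrn3. With each of the 12 libraries of these groups left out in turn, an alternative chosen after seeing the data, the calls of Atf3 and Zfp36 were kept 12 times, that of Btg2 11 times and that of Fam208a 8 times. The other 7 calls were kept 3 or 4 times.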

How the results depend on the processing

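Of the alternative values for single genes, 633 kept their direction and side of the threshold or moved by less than 1 SD between replicates, 26 moved by more, 29 lost a call, 7 gained one and 5 reversed. The number of the 5 genes lower with Rux than in WT was 5 in every alternative. The number called in AG221 against WT (2) was 1 with DESeq2, RLE, upper quartile scaling, no filter or only the groups compared, and 1 to 2 with a library left out. In AG221 against Rux (3) it was 5 with DESeq2, upper quartile scaling or GC offsets, 1 with no filter, 0 with only the groups compared, and 0 to 3 with a library left out. Against WT, the AG221 change reversed with GC offsets for Adipor2 (0.0012) and Cnot6 (0.14), without WT replicate B30 for Cnot6 (0.053) and without AG221 replicate A9 for Trim28 (-0.031), none of them called. With a library left out, that change was between -0.172 and 0.053 for Cnot6 and between -0.031 and 0.354 for Trim28. The combo minus AG221 difference of Trim28 was -0.10 with GC offsets. For the 157 relatives and partners, combo against vehicle (31 called) gave 14 to 28 with a library left out, and vehicle against WT (58) gave 26 to 53. AG221 against vehicle (3) gave 24 with DESeq2, 5 with upper quartile scaling, 0 with only the groups compared, and 0 to 44 with a library left out, the 44 without AG221 replicate A9. Rux against vehicle gave 0 in edgeR (7 at an unadjusted p under 0.05) and 1 in DESeq2. The departure from the sum (18) gave 37 with DESeq2, 31 with upper quartile scaling, 4 with only the groups compared, and 2 to 60 with a library left out, the 60 without AG221 replicate A9. Apart from DESeq2, the alternatives for this departure were chosen after seeing the data. The cause of these changes was not tested. No paired analysis was possible because the groups share no replicate numbers. With 3 libraries per group, changes of 2-fold were often missed on simulated data, in which far fewer genes changed than were called here. Trim66 lay too near the floor for a direction.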
